A study of Homo sapiens with 4 samples.

Results

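Crosslink sites on the mitochondrial genome outside the 12S and 16S ribosomal RNAs were examined in an iCLIP experiment on the tumour suppressor PDCD4, an RNA-binding protein that acts in the nucleus and on translation in the cytoplasm. Members were all listed sites on the mitochondrial chromosome whose gene label holds neither MT-RNR1 nor MT-RNR2, at any score. They numbered 208 of the 158922 sites of the PDCD4 list and 208 of the 111361 sites of the IgG list, 416 of 270283 in all. Both groups were wild-type (WT) MCF10A cells, an established, non-tumorigenic breast epithelial line, kept in medium with horse serum, epidermal growth factor, insulin, hydrocortisone and cholera toxin. For PDCD4 antibody and for the isotype control IgG there were 2 replicates each. In iCLIP, UV light links RNA to protein, the protein is immunoprecipitated, and the cDNA made from the attached RNA tends to end next to the linked base. The deposited lists, 1 for PDCD4 and 1 for IgG, pool their replicates, so the spread between replicates is unknown and the lists are compared without a test. All intervals are exact 95% intervals that cover counting error only.

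Each listed site is 1 nt wide, and its score is the raw number of cDNAs counted there, with sums of 409308 for PDCD4 and 276139 for IgG. Values are given as cDNAs or as cDNAs per 10000 cDNAs of the list, and lists were compared as the log2 ratio of these shares. The tool iCount lists a site when it passes a false discovery rate set by random positions within the same gene, so a gene without a listed site may still have had cDNAs. How much of each RNA the cells held was not measured in these lists, and the amount of an RNA and its binding cannot be told apart in these values. IgG sites were also subtracted from the PDCD4 replicates before sites were called, and no such step is described for the IgG list. How far this lowered PDCD4 counts, and so the ratios, was not tested.

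The human mitochondrial genome is a circle without introns. Both of its strands are transcribed into long precursors that carry 13 mRNAs for subunits of the respiratory chain and of ATP synthase, 2 rRNAs and 22 tRNAs, and the tRNAs are cut out at both ends to release most of the RNAs between them. These RNAs are made, translated and degraded inside the organelle, on its own ribosomes. All genes named here lie on the mitochondrial chromosome of GRCh38, which is 16569 nt long in the reference used.

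Sites of high score are shown first, to give examples of where in the RNAs the cDNAs lie: all 4 PDCD4 sites above a score of 8, 3 of the 8 PDCD4 sites at a score of 8, chosen to show further genes, and the 2 highest IgG sites. Each line gives 30 nt of the RNA strand in the reference genome, 5′ to 3′, written as DNA, with the listed base in capitals. The first line ends inside the 16S rRNA and the second inside the 12S rRNA, the next 5 lie in mRNAs, and the last 2 are the highest sites of the IgG list.
MT-TV, PDCD4 score 13, chrM:1654-1683, plus strand: taacttgaccgctctGagctaaacctagcc
MT-TF, PDCD4 score 8, chrM:632-661, plus strand: catcaccccataaacAaataggtttggtcc
MT-CO1, PDCD4 score 11, chrM:7177-7206, plus strand: tcttcccacaacactTtctcggcctatccg
MT-CO2, PDCD4 score 11 and IgG score 3, chrM:7768-7797, plus strand: agaaaccgtctgaacTatcctgcccgccat
MT-CO2, PDCD4 score 9, chrM:7795-7824, plus strand: catcatcctagtcctCatcgccctcccatc
MT-CYB, PDCD4 score 8, chrM:15082-15111, plus strand: ctgaaacatcggcatTatcctcctgcttgc
MT-ND1, PDCD4 score 8, chrM:3392-3421, plus strand: gctatatacaactacGcaaaggccccaacg
MT-CO1, IgG score 9, chrM:7078-7107, plus strand: gcttcattcactgatTtcccctattctcag
MT-ND3, IgG score 8, chrM:10164-10193, plus strand: ccttacgagtgcggcTtcgaccctatatcc

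Mitochondrial RNA outside the rRNAs took a smaller share of the PDCD4 list than of the IgG list. The members held 714 PDCD4 cDNAs, 0.174% of the list (0.162% to 0.188%), and 688 IgG cDNAs, 0.249% (0.231% to 0.268%). The log2 ratio was -0.51 (-0.67 to -0.36), and the intervals of both shares did not overlap. On the same chromosome, both rRNAs together held 4086 PDCD4 cDNAs and 178 IgG cDNAs, a log2 ratio of 3.95 (3.74 to 4.18). Members therefore made up 14.9% of the mitochondrial cDNAs for PDCD4 (13.9% to 15.9%) and 79.4% for IgG (76.6% to 82.1%). Relative to the mitochondrial total, the log2 ratio of the members was -2.42. At scores greater than 5, the threshold in the study's methods, the members held 250 PDCD4 and 139 IgG cDNAs. Their log2 ratio was -1.11 (-1.41 to -0.80) as a share of the 19332 and 4980 cDNAs at such scores, and 0.28 (-0.03 to 0.59) as a share of the whole lists, so its sign at that threshold depended on the denominator.

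High scores were more frequent on the members than on nuclear RNAs and less frequent than on the mitochondrial rRNAs in both lists. Of the 208 PDCD4 members, 34 had a score greater than 5 (16.3%, 11.6% to 22.1%), against 1.33% of the nuclear sites of that list (1.27% to 1.39%). In the IgG list it was 21 members (10.1%, 6.36% to 15%), against 0.662% of nuclear sites. Sites in the rRNA genes were past that score in 64.3% of PDCD4 and 25.6% of IgG cases. The median score of the members was 3 in both lists, with a maximum of 13 for PDCD4 and 9 for IgG. The sites were also clustered, and 190 PDCD4 members (91.3%) and 185 IgG members (88.9%) lay within 3 nt of another member of their list. The cDNAs of such a cluster are not independent, which the counting intervals do not include. Scores of 1 were also more frequent than on nuclear RNAs. They were found at 31 PDCD4 members (14.9%, against 7.44% of nuclear sites) and 24 IgG members (11.5%, against 5.21%). Of these members, 29 and 21 had such a neighbour.

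The mRNAs held 199 of the PDCD4 members, with 671 cDNAs, and 203 of the IgG members, with 664 cDNAs (log2 ratio -0.55, -0.71 to -0.40). Single mRNAs differed in both directions around this value. Of the 13 genes, 11 had at least 20 cDNAs over both lists, and of these 3 had a PDCD4 share at least 2-fold above the IgG share, against 17.7% of all 7299 genes with that minimum. A further 5 had a share at least 2-fold lower, against 16.4% of all genes, and 3 were within 2-fold. A gene with a site in 1 list only counts as past the fold. By the counting interval, 4 of the 11 lay above 0 (20.2% of all genes) and 6 below 0 (23.8% of all genes). The median log2 ratio was -0.37 for the 11 mRNAs and -0.08 for all genes tested.

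**Figure D1:**
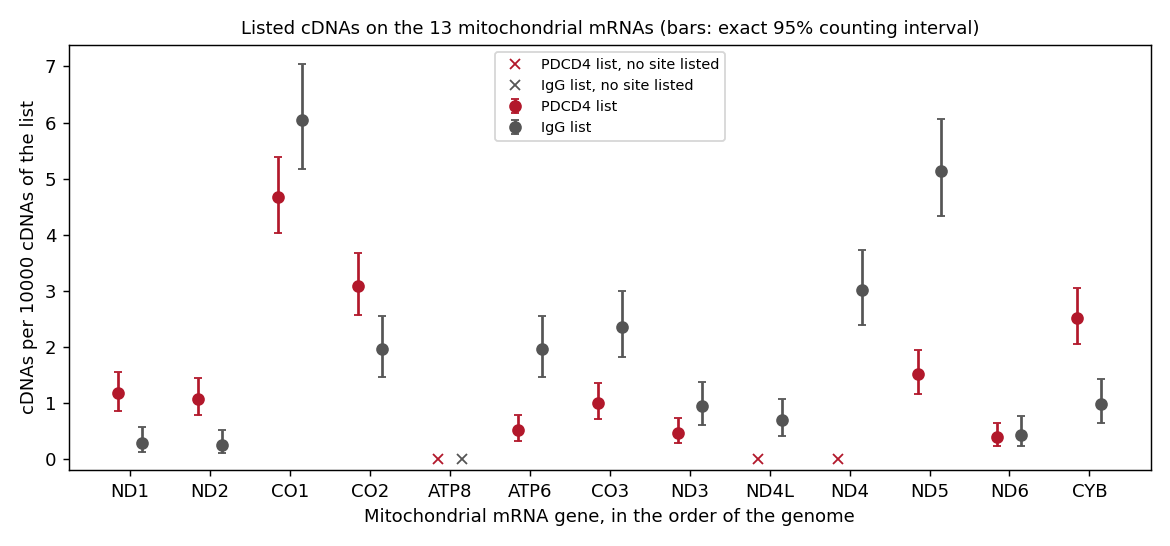
cDNAs per 10000 cDNAs of the list for each of the 13 mitochondrial mRNAs in genome order, with the PDCD4 list in red, the IgG list in grey, exact 95% counting intervals as bars and crosses where no site is listed. MT-CO1 is highest in both lists (4.67 for PDCD4 and 6.05 for IgG), MT-ND1, MT-ND2, MT-CO2 and MT-CYB are higher in the PDCD4 list, and MT-ND4 and MT-ND4L have IgG sites only.

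Complex I, the NADH dehydrogenase that feeds electrons into the chain, has 7 mitochondrially encoded subunits, and these had the widest range of ratios. Together they held 189 PDCD4 cDNAs at 59 sites and 297 IgG cDNAs at 89 sites, a log2 ratio of -1.22 (-1.49 to -0.95). MT-ND1 (positions 3307 to 4262, plus strand) held 48 PDCD4 cDNAs on 14 sites, against 8 IgG cDNAs on 2 sites, a log2 ratio of 2.02 (0.92 to 3.31). MT-ND2 (4470 to 5511, plus strand) had 44 cDNAs at 13 sites against 7 cDNAs at 2 sites, a ratio of 2.08 (0.92 to 3.48). These adjacent genes, the first mRNAs after the rRNAs in the precursor, thus had the largest positive ratios of the mRNAs, each resting on 2 IgG sites at adjacent positions. For MT-ND5 (12337 to 14148, plus strand) the direction was opposite, with 62 cDNAs at 19 sites against 142 cDNAs at 40 sites and a ratio of -1.76 (-2.22 to -1.32). MT-ND3 (10059 to 10404, plus strand) had 19 cDNAs against 26, at 7 sites in each list (-1.02, -1.96 to -0.11).

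MT-ND4 and MT-ND4L had sites in the IgG list only. These genes overlap at their ends and are read from 1 shared mRNA, which encodes membrane subunits of complex I. MT-ND4 (10760 to 12137, plus strand) had 29 IgG sites with 83 cDNAs, a highest score of 6 and a lowest of 1, and MT-ND4L (10470 to 10766, plus strand) had 6 IgG sites with 19 cDNAs. In the PDCD4 list both are listed at 0, so no ratio is given. Whether the filter or the subtraction of IgG sites left them out was not tested. Of the 7299 genes with at least 20 cDNAs over both lists, 12 had no PDCD4 site, and MT-ND4 had the second highest IgG sum among these 12. The 5 other complex I genes together had a log2 ratio of -0.61 (-0.91 to -0.32). MT-ND6 is the 1 mRNA of the minus strand (14149 to 14673), and its 16 PDCD4 cDNAs at 6 sites and 12 IgG cDNAs at 3 sites gave a ratio of -0.15 (-1.32 to 1.06), whose interval includes 0.

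**Figure D2:**
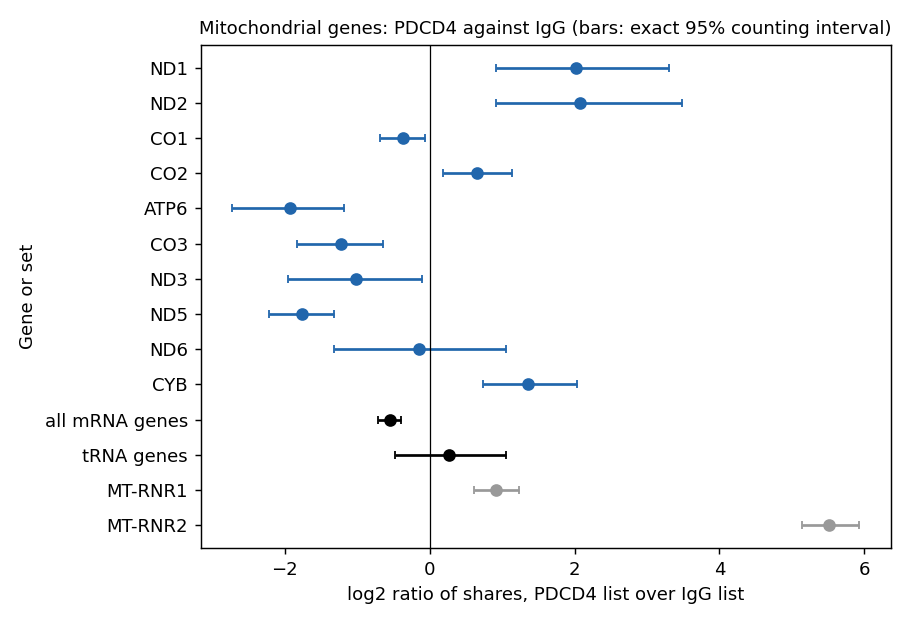
log2 ratio of the PDCD4 share over the IgG share for the 10 mitochondrial mRNAs with sites in both lists (blue), for all mRNAs and all tRNAs (black) and for the rRNAs as comparison (grey), with exact 95% counting intervals. MT-ND1 and MT-ND2 lie near 2, MT-ATP6 and MT-ND5 near -2, and MT-RNR2 at 5.52.

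Cytochrome c oxidase, complex IV, passes electrons to oxygen, and the mRNAs of its 3 core subunits gave the largest sum in the PDCD4 list, while complex I did in the IgG list. They held 358 PDCD4 cDNAs at 103 sites and 286 IgG cDNAs at 87 sites, a log2 ratio of -0.24 (-0.47 to -0.01). MT-CO1, the catalytic subunit (5904 to 7445, plus strand), had 191 PDCD4 cDNAs at 55 sites and 167 IgG cDNAs at 51 sites (-0.37, -0.68 to -0.07). MT-CO2, the subunit that receives electrons from cytochrome c (7586 to 8269, plus strand), had 126 cDNAs at 32 sites against 54 at 16 sites (0.65, 0.18 to 1.14). MT-CO3 (9207 to 9990, plus strand) had 41 cDNAs at 16 sites against 65 at 20 sites (-1.23, -1.83 to -0.65). The intervals of MT-CO2 and MT-CO3 did not overlap when cDNAs were counted. By number of sites their ratios were 0.49 (-0.42 to 1.45) and -0.84 (-1.88 to 0.19), with intervals that overlap and include 0. At scores greater than 5, MT-CO2 had 61 PDCD4 and 18 IgG cDNAs, and its ratio was -0.20 (-0.97 to 0.65) among cDNAs at such scores and 1.19 (0.42 to 2.04) over the whole lists. The corresponding ratios were -0.41 and 0.97 for MT-CO1, and -0.86 and 0.53 for complex IV.

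MT-CYB, which encodes cytochrome b and is the 1 mitochondrial gene of complex III (14747 to 15887, plus strand), had 103 PDCD4 cDNAs at 29 sites and 27 IgG cDNAs at 11 sites. Its log2 ratio was 1.36 (0.74 to 2.03), and 5 PDCD4 sites but no IgG site had a score greater than 5. MT-ATP6, a subunit of the proton channel of ATP synthase (8527 to 9207, plus strand), had 21 cDNAs at 8 sites against 54 cDNAs at 16 sites, a ratio of -1.93 (-2.73 to -1.18). MT-ATP8, whose reading frame overlaps that of MT-ATP6 (8366 to 8572, plus strand, 207 nt), had no listed site in either list. The 16S rRNA held 78% of the mitochondrial cDNAs of the PDCD4 list. Relative to the mitochondrial cDNAs, the ratios of MT-CYB and MT-CO2 changed sign to -0.54 and -1.25. Those of MT-ND1 and MT-ND2 were 0.11 and 0.18, with intervals that include 0.

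Per length, the order of the mRNAs differed between the lists. In the PDCD4 list MT-CO2 was densest, with 18.4 cDNAs per 100 nt, followed by MT-CO1 with 12.4 and MT-CYB with 9.03. MT-ND3 (5.49), MT-CO3 (5.23), MT-ND1 (5.02) and MT-ND2 (4.22) lay close together, then MT-ND5 (3.42), MT-ATP6 (3.08) and MT-ND6 (3.05). In the IgG list MT-CO1 was densest with 10.8 cDNAs per 100 nt, and MT-CO3, MT-ATP6, MT-CO2, MT-ND5 and MT-ND3 followed within a narrow range of 8.29 to 7.51. MT-CYB (2.37), MT-ND6 (2.29), MT-ND1 (0.837) and MT-ND2 (0.672) were the lowest of the genes with IgG sites. These genes included 3 of the 4 whose counting interval lay above 0, but a low IgG count raises the ratio by construction.

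The study's methods describe a subtraction of IgG sites from the PDCD4 replicates before sites were called, so how often the lists share a position is set in part by the processing. Of the 199 PDCD4 sites in mRNAs, 7 (3.52%, 1.43% to 7.11%) were listed at the same position in the IgG list, and IgG sites take up 1.78% of all positions of the 13 genes. They lay in MT-CO1, MT-CO2, MT-ND5 and MT-CYB, and the highest of them was the MT-CO2 site at position 7783, with 11 PDCD4 cDNAs and 3 IgG cDNAs. Within 5 nt of an IgG site lay 20 PDCD4 sites (10.1%, 6.25% to 15.1%), and 9.57% of all positions of the 13 genes are as close. Within 10 nt lay 40 PDCD4 sites (20.1%, 14.8% to 26.3%), against 16% of positions. Conversely, 29 of the 203 IgG sites (14.3%, 9.78% to 19.9%) lay within 5 nt of a PDCD4 site, against 8.64% of positions, and 24.1% (18.4% to 30.6%) within 10 nt, against 14.2% of positions. Sites of a cluster are not independent, which these intervals do not include.

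**Figure D3:**
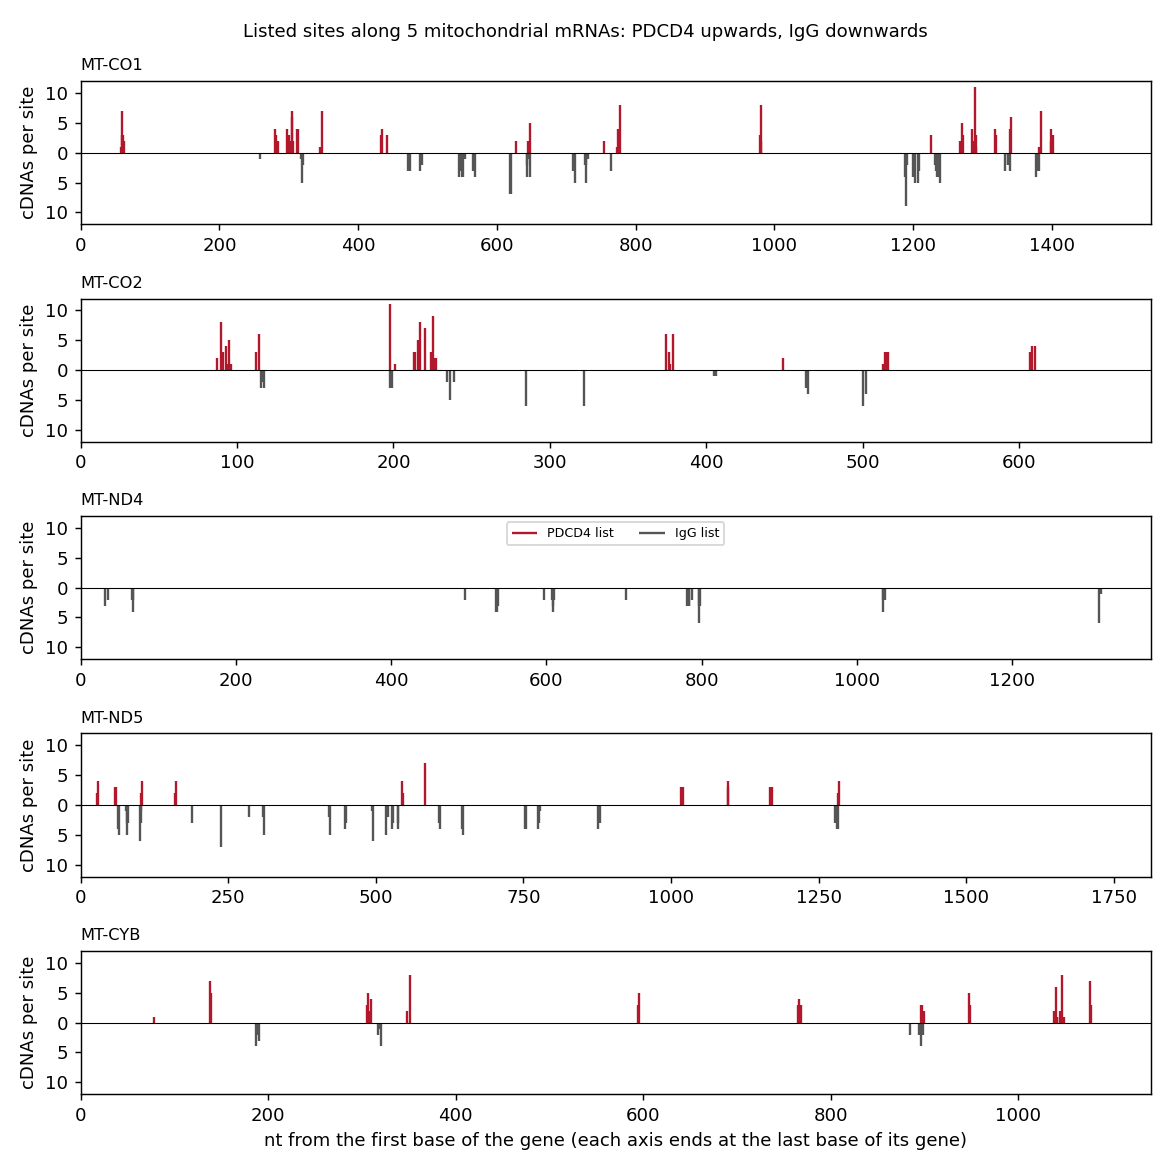
Scores of the listed sites (cDNAs per site) along MT-CO1, MT-CO2, MT-ND4, MT-ND5 and MT-CYB in nt from the first base of each gene, with PDCD4 upwards in red and IgG downwards in grey. PDCD4 sites of MT-CO2 are crowded about 200 nt into the gene, where the densest IgG stretch of that gene also begins. MT-ND4 has IgG sites only, and MT-ND5 has more IgG than PDCD4 sites.

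Within genes, the cDNAs were concentrated in short stretches. In MT-CO2, 54 of the 126 PDCD4 cDNAs (42.9%) fell on 11 sites within 30 nt, from 7783 to 7812, which cover the 2 printed MT-CO2 sites. The densest 100 nt of the IgG list in MT-CO2 began at the same position. It held 21 IgG cDNAs (38.9% of the gene's) at 6 sites from 7783 to 7870. In MT-CO1 the densest 100 nt held 56 PDCD4 cDNAs at 16 sites from 6183 to 6251, and in the IgG list 50 cDNAs at 12 sites from 7091 to 7142. In MT-ND1, 29 of the 48 PDCD4 cDNAs fell on 8 sites from 3325 to 3407, near the start of the gene. In MT-CYB the densest stretch lay near the end of the gene, with 31 PDCD4 cDNAs at 9 sites from 15784 to 15824.

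Along the mRNAs as a whole, PDCD4 cDNAs were more frequent in the outer bins of the genes and IgG cDNAs nearer the middle. When each gene was divided into 5 equal bins, the first held 28.6% of the PDCD4 cDNAs on mRNAs (25.2% to 32.2%) and 12.8% of the IgG cDNAs (10.4% to 15.6%). The middle bin held 13.6% (11.1% to 16.4%) and 26.7% (23.3% to 30.2%), and the last bin 24.6% (21.4% to 28.0%) and 16% (13.3% to 19.0%). In these 3 bins the PDCD4 and IgG intervals were apart, but counted by sites they overlapped in the last bin (25.6%, 19.7% to 32.3%, and 16.3%, 11.5% to 22.1%). With any single mRNA left out, the first bin held between 26.2% and 31.5% of the PDCD4 cDNAs, and without MT-ND1 it (26.2%) was no longer above the last bin (26.5%). The IgG value lay between 6.70%, without MT-ND5, and 16.9%, without MT-CO1. Without MT-CO1 the last bin held 20.0% of the PDCD4 cDNAs and 14.3% of the IgG cDNAs, with overlapping intervals.
By gene, the first bin of MT-CO1 held 56 of 191 PDCD4 cDNAs and 1 of 167 IgG cDNAs, that of MT-CO3 18 of 41 against 0 of 65, and that of MT-ND3 11 of 19 against 0 of 26. MT-ND5 had like shares, 24 of 62 and 50 of 142. MT-ND2 had none of its 44 PDCD4 cDNAs there, and MT-CYB had 13 of 103 PDCD4 cDNAs against 9 of 27 IgG cDNAs, so the pattern did not hold for every mRNA. The last bin held 69 of 191 PDCD4 cDNAs in MT-CO1 (IgG 35 of 167), 39 of 103 in MT-CYB (IgG 0 of 27) and 25 of 44 in MT-ND2 (IgG 0 of 7). MT-ND1, MT-ND3 and MT-ND5 had 0 cDNAs there in both lists. MT-CO3 (12 of 41 PDCD4, 37 of 65 IgG) and MT-ATP6 (3 of 21 PDCD4, 15 of 54 IgG) ran the other way. Most mitochondrial mRNAs begin at or next to their start codon, and the first bases of each gene are the 5′ end of its reading frame. MT-ND4 overlaps MT-ND4L and MT-ATP6 overlaps MT-ATP8, so their first bases lie inside the gene before. The first 50 nt of the 13 genes, 5.70% of their positions, held 41 PDCD4 cDNAs at 15 sites (6.11%, 4.42% to 8.20%) and 5 IgG cDNAs at 2 sites (0.753%, 0.245% to 1.75%). The last 50 nt, also 5.70% of positions, held 6 PDCD4 cDNAs (0.894%, 0.329% to 1.94%) and 8 IgG cDNAs (1.20%, 0.522% to 2.36%). Both lists were thus sparse at the very 3′ end, although the last bin of the PDCD4 list was not.

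**Figure D4:**
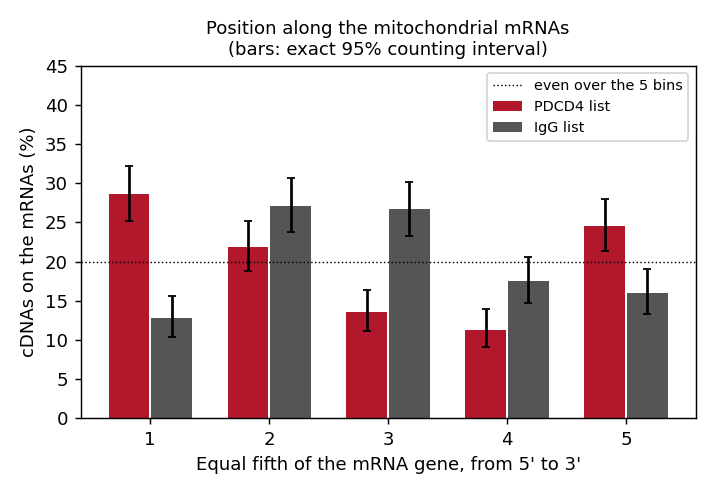
Percent of the cDNAs on mitochondrial mRNAs in each of 5 equal bins of the genes from 5′ to 3′, for the PDCD4 list (red) and the IgG list (grey), with exact 95% counting intervals and a dotted line at an even spread. PDCD4 has its higher values in the first and last bins (28.6% and 24.6%, with overlapping intervals) and IgG in bins 2 and 3 (27.1% and 26.7%).

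Mitochondrial tRNAs carry amino acids to the organelle's ribosome and mark where the precursor is cut. Of the 22 tRNA genes, 5 had a PDCD4 site and 3 others an IgG site, too few to read anything from the lack of a shared gene. The PDCD4 list held 43 cDNAs at 9 sites and the IgG list 24 cDNAs at 5 sites, a log2 ratio of 0.27 (-0.48 to 1.06) whose interval includes 0. Of the PDCD4 cDNAs, 20 in MT-TV and 8 in MT-TF lay at the last bases before an rRNA gene. No ratio was computed for the other tRNA genes alone. At scores greater than 5 the ratio of all tRNA genes was -0.96 (-1.93 to 0.08) among cDNAs at such scores and 0.43 (-0.54 to 1.47) over the whole lists. Most PDCD4 sites lay at the 3′ ends of their genes. The last 5 nt held 7 of the 9 sites and 40 of the 43 cDNAs (93%, 80.9% to 98.5%), whereas none of the 5 IgG sites lay there. Those 40 PDCD4 cDNAs lay in MT-TV, MT-TF, MT-TP and MT-TY, within a few bases in each. The interval counts them as independent, and the sites are too few to set the lists apart.
In MT-TV, the tRNA for valine between the rRNAs (1602 to 1670, plus strand), 20 PDCD4 cDNAs at 3 sites lay at positions 1666, 1668 and 1669. The last of these, with 13 cDNAs, was the highest member of the PDCD4 list. In MT-TF, the tRNA for phenylalanine (577 to 647, plus strand), 8 PDCD4 cDNAs lay on the last base. MT-RNR2 begins at position 1671 and MT-RNR1 at position 648, and since iCLIP cDNAs start next to the site and run 3′ of it, cDNAs at these positions cover the first bases of the 16S and 12S rRNAs, as the first 2 printed sequences show. These sites are on the edge of genes with log2 ratios of 5.52 (MT-RNR2) and 0.92 (MT-RNR1).
On the minus strand, MT-TP (tRNA for proline, 15956 to 16023) had 8 PDCD4 cDNAs on its last 2 bases, and MT-TY (tRNA for tyrosine, 5826 to 5891) had 4 on the base before its last. MT-TL2 (a tRNA for leucine, 12266 to 12336, plus strand) had 3 PDCD4 cDNAs at bases 4 and 5. In the IgG list, MT-TL1, the other tRNA for leucine, had 13 cDNAs at 3 sites on bases 9 to 11. MT-TM (tRNA for methionine) had 7 on its first base, and MT-TE (tRNA for glutamate) had 4 on base 38.

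Sites followed the strand of their genes in every case. All 416 members carried 1 gene label, lay inside that gene in GENCODE release 44 and were on its strand, and none lay antisense to a labelled gene or in the noncoding control region. Every listed site carries a gene label, so this follows at least in part from how the lists were made. It is no result about either antibody. Most mitochondrial genes are read from 1 strand, and the plus strand held 199 PDCD4 and 204 IgG members. The minus strand, which carries MT-ND6 and 8 tRNA genes, held 28 PDCD4 cDNAs at 9 sites (3.92% of the members' cDNAs, 2.62% to 5.62%). It held 16 IgG cDNAs at 4 sites (2.33%, 1.33% to 3.75%), and the intervals overlap. At scores greater than 5 each list had 1 site on the minus strand, with 7 cDNAs.

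Sites in the mRNAs were richer in uridine than the mRNAs themselves in both lists. Uridine was the base at 43.2% of PDCD4 sites (36.2% to 50.4%) and at 43.8% of IgG sites (36.9% to 51.0%), against 26.2% of all positions of the 13 genes. At the base after the site it was 40.7% and 44.8%, and 10 nt before the site 22.6% and 24.6%. Guanosine was correspondingly rare at the site, 5.53% for PDCD4 (2.79% to 9.68%) and 3.45% for IgG (1.40% to 6.98%), against 13.1% of positions. UV crosslinking is known to favour uridine, and the PDCD4 and IgG intervals overlapped for all 4 bases at the site.

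**Figure D5:**
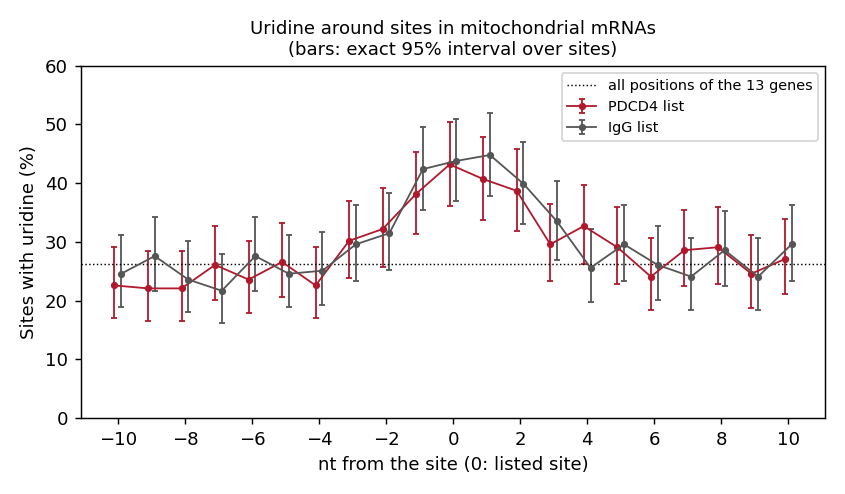
Percent of sites in mitochondrial mRNAs with uridine at each position from 10 nt before to 10 nt after the listed site (0), for the PDCD4 list (red, 199 sites) and the IgG list (grey, 203 sites), with exact 95% intervals over sites and a dotted line at the 26.2% of all positions. Both lists rise to over 40% at the site and the base after it and lie near the dotted line from 10 to 4 nt before it.

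Parts of the mitochondrial genome have copies in the nuclear chromosomes, so short cDNAs can have more than 1 place of origin. Of all runs of 30 nt in the mitochondrial genome, 38.8% occur unchanged in the nuclear chromosomes, from 4.73% in MT-ND3 and 7.73% in MT-CYB to 71.1% in MT-CO1 among the mRNAs. The 30 nt after the site occur there for 67 PDCD4 members (32.2%, 25.9% to 39.0%) and 46 IgG members (22.1%, 16.7% to 28.4%). Without these sites the log2 ratio of the members was -0.63 (-0.81 to -0.45), that of complex I -1.24 and that of MT-CYB 1.37. MT-CO1 moved from -0.37 to -0.82 (-1.25 to -0.40), and MT-ND2 kept no IgG site and so no ratio. With MT-ND2 counted as past the fold, again 3 mRNAs were at least 2-fold higher and 5 at least 2-fold lower. For the tRNAs, where the 30 nt after the highest MT-TV site are among those with a nuclear copy, the ratio without such sites was -0.36 (-1.53 to 0.83). Of the runs in MT-ND4, 23.0% occur in the nuclear chromosomes.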

How the data were processed

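Crosslink sites of 2 PDCD4 and 2 IgG iCLIP replicates were analysed. The authors called sites with iCount against the Ensembl release 88 genome after subtracting IgG sites from the PDCD4 replicates, and deposited 1 list per group, pooling the replicates. The deposited scores are raw cDNA counts per 1-nt site, without normalization and after a false discovery rate filter. They also hold scores at or under the methods' threshold of 5. Aligner settings are not given in the sources used here.

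All scores were used. Genes were located in GENCODE release 44, whose mitochondrial genome holds every member inside its labelled gene. Shares have exact Clopper-Pearson 95% intervals, and log2 ratios of 2 counts have exact conditional ones. No pseudocount was added. Genes with at least 20 cDNAs over both lists were called past a 2-fold ratio, over all genes. Each 30-nt run that follows a site was looked up in the nuclear chromosomes, both strands.

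All 13 mRNAs, the tRNA genes with sites and the highest sites are named. Members and lists were chosen with earlier results of these data known. Stretches of 100 nt, gene ends, site spacing, nearness of the lists, the genes without a PDCD4 site and the 30-nt search were chosen after seeing the data. Alternatives changed the score threshold, the unit counted, the denominator and the sites kept. The log2 ratios and their intervals were tested on simulated independent counts per gene, which hold neither clustered sites nor spread between replicates. Intervals were computed with scipy 1.17.1 in Python 3.11.15 (pandas 2.3.3, numpy 2.4.6), and plots drawn in matplotlib 3.10.9.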

Additional observations from a re-analysis of the deposited data

How the results depend on the processing

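No paired analysis was possible because each deposited list pools its replicates, and for the same reason no replicate could be left out. With the members and the list sums both restricted to scores greater than 5, log2 ratios moved to -1.11 for all members, -2.14 for complex I, -0.86 for complex IV, -0.96 for the tRNAs and -0.20 for MT-CO2, 2 mRNAs were at least 2-fold lower, and 5.04% of the IgG cDNAs (1 site) were on the minus strand. MT-ND5 moved to -3.40 and MT-ND3 to -2.28. With the sums of the whole lists kept, an alternative added after seeing the data, the ratios were 0.28 for all members, -0.75 for complex I, 0.53 for complex IV, -0.57 for complex V and 0.97 for MT-CO1, with 1 mRNA at least 2-fold lower. As a share of the mitochondrial cDNAs, the ratios were -2.42 for all members, -3.12 for complex I, -0.54 for complex III (MT-CYB), -2.15 for complex IV, -3.83 for complex V and -1.25 for MT-CO2, with 0 mRNAs at least 2-fold higher and 8 lower. By number of sites, 0 mRNAs were at least 2-fold higher and 3 lower, where MT-ND1 and MT-ND2 had fewer than 20 sites and MT-CYB was at 0.89. Without the highest site of each gene MT-ND2 moved to 3.64. Without sites whose next 30 nt occur in the nuclear genome, also added, complex IV was at -0.48, the PDCD4 share on the minus strand 5.67% and the PDCD4 share in the first bin 33.2%. Leaving out MT-CO1, also added, gave 16.9% of IgG cDNAs in the first bin. The interval of complex IV reached 0 or above with scores of at least 2, by number of sites and without the highest site of each gene. At scores greater than 5 MT-CYB and its complex had no IgG site and no ratio. For the groups, shares and counts, the other 64 of 88 values stayed within the interval of the value reported or, for counts of genes, within 1.5 times. For single mRNAs 71 values stayed within it, 14 moved beyond it and 4 changed sign. Changes of sign were counted only where the reported interval excluded 0. MT-ND6, at 0.49 by number of sites and 0.57 without the highest site of each gene, is therefore among the 71. The lists' filter and the pooling limit all values, and the smallest sums (MT-ND1 and MT-ND2 in the IgG list) rest on 2 sites each.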

Other observations

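Nuclear copies of mitochondrial genes, taken by symbol, carried sites of their own. In the PDCD4 list 26 sites with 86 cDNAs had such a label, of which 17 sites with 59 cDNAs were in copies of rRNA genes (symbols starting with MTRNR). In the IgG list it was 14 sites with 37 cDNAs, and none was in an rRNA copy. MTATP6P1, a copy of MT-ATP6, had 21 PDCD4 cDNAs at 7 sites and 22 IgG cDNAs at 8 sites, beside 21 and 54 cDNAs on MT-ATP6 itself. Whether cDNAs of the mitochondrial RNAs were placed at these copies was not tested.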
